A study of Rattus norvegicus with 14 samples.

Results

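MiR-21, miR-221 and miR-222 are 3 microRNAs (miRNAs) studied as regulators of cell growth. On the islet arrays of this study they have 4 rows among 350 miRNAs, chosen by name: rno-miR-21, its minor strand rno-miR-21*, rno-miR-221 and rno-miR-222. MiRNA levels were measured on 1-colour Agilent arrays in pancreatic islets of female rats on day 14 of gestation (4 arrays) and of control female rats (4 arrays), with total RNA labelled by cyanine 3 in both groups. Strain, age and the number of rats behind an array are not given in the labels, which call the arrays biological replicates, so a p-value covers only the spread among the 8 arrays, and their number limits the precision. Of the 4 rows, 1 was detected on every array (miR-21), 1 on 4 of the 8 arrays (miR-221) and 2 on none (miR-222 and miR-21*).

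A mature miRNA guides the Argonaute protein to messenger RNAs that pair with its seed, bases 2 to 8, and lowers their translation and stability. MiR-21 is known to repress the apoptosis-linked Pdcd4, is induced by inflammatory cytokines in beta cells, and is abundant in fibroblasts and leukocytes. MiR-221 and miR-222 are made from 1 primary transcript, repress the cell-cycle inhibitor p27 (Cdkn1b) in human cancer cells, and are abundant in endothelial and smooth muscle cells. In pregnancy the rat beta-cell mass expands, which is the setting of the comparison.

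The mature sequences are shown because they define which of the 3 miRNAs can share targets. They are the RefSeq sequences of rat assembly GRCr8, 5′ to 3′, with the seed in capitals; by miRNA naming the array's miR-21 is the 5p strand, miR-21* the 3p strand, and miR-221 and miR-222 the 3p strands.
rno-miR-21-5p: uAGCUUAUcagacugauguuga
rno-miR-21-3p: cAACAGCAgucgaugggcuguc
rno-miR-221-3p: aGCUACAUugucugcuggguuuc
rno-miR-222-3p: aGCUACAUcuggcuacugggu
MiR-221-3p and miR-222-3p had the same seed, GCUACAU, which no other of the 724 mature rat sequences in the RefSeq table carried. Their first 8 bases were identical, and 11 of the 21 positions compared from the 5′ end, with no gap allowed, held the same base. Both also hold the run cugggu, at shifted positions, which a count without gaps largely misses. That count is therefore no measure of how alike the sequences are beyond the first 8 bases, and no gapped alignment was made. The miR-21-5p seed, AGCUUAU, occurred in no other mature sequence of that table.

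In GRCr8 the Mir222 hairpin (103 bases, chrX:6022621-6022723, plus strand) lies 458 bases before the Mir221 hairpin (109 bases, chrX:6023182-6023290, plus strand), and the RefSeq gene table places both within the long noncoding RNA genes LOC120099382 and LOC120099384. The Mir21 hairpin (92 bases, chr10:71902600-71902691, minus strand) has Vmp1 and Tubd1 as its neighbours.

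Signals were scaled to the 75th percentile of the miRNAs detected on all 8 arrays and are called normalised signals, in arbitrary units. Summed deposited signals ran from 162042 to 229760 on the pregnant arrays and from 148467 to 222834 on the control arrays, and 157 to 188 miRNAs were detected on an array. The islet identity of the samples was checked with miR-375 and miR-7a, miRNAs abundant in endocrine cells. MiR-375 had a mean normalised signal of 9158 in pregnancy and 9519 in control islets, and miR-7a one of 18217 in pregnancy and 19430 in control islets. Of the 8 beta-cell and neuroendocrine marker miRNAs 7 were detected on all 8 arrays and miR-184 on none. Of these 7, 6 had negative log2 changes, 2 were called lower (miR-338 at -1.13 and miR-335 at -0.74, beside 2.34% called lower among all miRNAs tested), and the median was -0.22, or -0.07 with the scaling percentile taken over every miRNA row. Their mean log2 signal was 9.67 to 9.77 on the pregnant arrays and 10.05 to 10.20 on the control arrays. The log2 changes not called were -0.36 (miR-7b), -0.22 (miR-129), -0.10 (miR-7a), -0.06 (miR-375) and 0.10 (miR-153). This list was chosen with earlier results of these data known and holds miR-338. Its calls and means are therefore no independent test of such markers. All 8 arrays came from 1 slide by the array names, which no label explains, and a digit of these names was read as the slide row. Row 1 held pregnant replicates 2, 3 and 4 and control replicate 2, and row 2 held pregnant replicate 1 and control replicates 1, 3 and 4.

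MiR-21 was an abundant signal on every array. Its normalised signal was 2203, 3514, 2356 and 2637 in pregnant replicates 1 to 4, against 2339, 4222, 2431 and 3523 in control replicates 1 to 4. The groups overlapped: control replicates 1 and 3 lay among the pregnant arrays, and control replicate 2 was the highest of all 8. On each array the signal was far above the 7 negative control features, at 31.5 to 58.8 times the brightest of them on the pregnant arrays and 69.3 to 117 times on the control arrays. That brightest feature itself had a normalised signal of 53.2 to 74.7 on the pregnant arrays and 20.7 to 55.1 on the control arrays. The ratios are therefore no measure of a group difference in miR-21. By signal it stood 16th to 20th of the 350 miRNAs on the pregnant arrays and 13th to 21st on the control arrays. Probes differ in how brightly they respond, so these ranks order signals and not numbers of molecules.

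MiR-21 did not pass the test for a difference in pregnancy. Its mean normalised signal was 2677 ± 586 (SD, n = 4) in pregnancy and 3129 ± 906 (SD, n = 4) in control islets. The log2 change, pregnant minus control, was -0.20 (SE 0.23, limma adjusted p = 0.622 over the 171 miRNAs tested), with a 95% interval of -0.74 to 0.34. On the linear scale this interval runs from 0.598 to 1.26 times the control level. Of the 171 miRNAs tested 8 (4.68%) were called at an adjusted p under 0.05, 4 higher and 4 lower (2.34% each), and the groups did not overlap for 25 (14.6%). The residual SD of miR-21 was 0.36 log2 units, against a median of 0.17 over all tested miRNAs, and 131 of the other miRNAs varied less within the groups.

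The size of the miR-21 difference varied with single arrays and with the kind of scaling. Without control replicate 2 the log2 change was -0.04, without pregnant replicate 1 it was -0.12, and without pregnant replicate 2 it was -0.34. Within slide row 1 (3 pregnant arrays, 1 control array) it was -0.60, and within row 2 (1 pregnant array, 3 control arrays) it was -0.30, against -0.45 with the row as a block (limma adjusted p = 0.217). Taking the scaling percentile over every miRNA row gave -0.05, a setting that moved the median log2 change of all tested miRNAs to 0.13 where it was -0.02. Quantile normalization gave -0.06 and the authors' processed values -0.08, while no scaling gave -0.20, as in the reported fit. None of the 19 other settings called miR-21, and their limma adjusted p ran from 0.217 to 0.984.

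**Figure D1:**
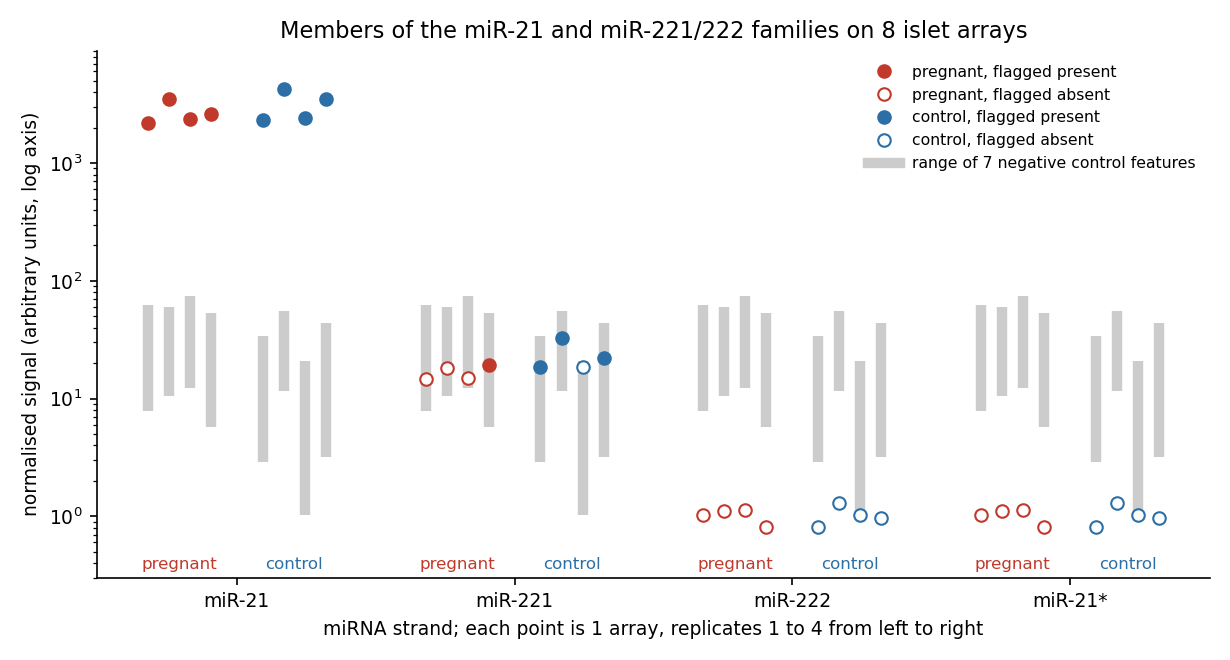
Normalised signal (arbitrary units, log axis) of the 4 rows on each array, pregnant in red left of control in blue, replicates 1 to 4 from left to right; filled points were flagged present, open points absent, and grey bars span the 7 negative control features of the array. MiR-21 lies between 2203 and 4222 on all arrays, miR-221 lies within the grey bars, and miR-222 and miR-21* sit at the lowest signal of the table.

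MiR-21*, the strand opposite miR-21 in the hairpin, was flagged absent on all 8 arrays, with the lowest deposited signal of the table (1) on each pregnant and each control array. In both groups its level is only a bound, so no fold and no change of the strand ratio between groups is given. Absence of the flag is common among minor strands here: of 58 rows marked with a star, 42 were detected on no array and 9 on all 8.

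MiR-221 gave a signal at the level of the negative controls. Its normalised signal was 14.7, 18.3, 14.8 and 19.4 in pregnant replicates 1 to 4, against 18.6, 32.7, 18.5 and 22.2 in control replicates 1 to 4. It was flagged present on 1 of 4 pregnant arrays (replicate 4) and on 3 of 4 control arrays (replicates 1, 2 and 4), so the other 4 values are only bounds. On the pregnant arrays 4 to 6 of the 7 negative control features were brighter than miR-221, and on the control arrays 1 to 3 were. By signal it stood 164th to 168th of the 350 miRNAs on the pregnant arrays, against 158th to 165th on control replicates 1, 3 and 4 and a brighter rank on control replicate 2.

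The mean normalised signal of miR-221 was 16.8 ± 2.38 (SD, n = 4) in pregnancy and 23.0 ± 6.70 (SD, n = 4) in control islets, and pregnant replicate 4 lay above control replicates 1 and 3. The log2 change was -0.42 (SE 0.20, limma adjusted p = 0.217, 95% interval -0.89 to 0.04) and did not pass the test. Control replicate 2 contributed to its size: without that array the log2 change was -0.24. With the scaling percentile over every miRNA row it was -0.27. When the slide row entered the fit as a block, miR-221 was called lower (-0.67, SE 0.16, limma adjusted p = 0.0427), a fit that calls 23 miRNAs in all, 19 of them lower (11.1% of those tested), while within row 1 the difference was -0.91 and within row 2 it was -0.42. Row 1 holds control replicate 2 as its only control array and row 2 holds 1 pregnant array, on which miR-221 was flagged absent. MiR-221 entered the fits at the minimum of 4 arrays flagged present, 3 of them control arrays and 1 pregnant. The fits took its other 4 values, which are bounds, as measured. It passed the filter mainly through the group where it was higher, so the row-block call is not independent of the filter. On the pregnant arrays the brightest negative control feature had a normalised signal of 53.2 to 74.7, against 20.7 to 55.1 on the control arrays. Of the control arrays, the one in slide row 1 had the 55.1 and those in row 2 had 20.7 to 44.2. Of the pregnant arrays, the one in row 2 had 62.6, within the 53.2 to 74.7 of those in row 1. The part of this background in the miR-221 values was not tested.

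MiR-222 was flagged absent on all 4 pregnant and all 4 control arrays, with the lowest deposited signal of the table on every array. It shares this with many miRNAs on the array: 44.3% of the 350 were detected on no array, and 102 had the lowest signal on all 8. The planned comparison of miR-221 with miR-222 within an array, and their co-variation across arrays, therefore have no value here. An absent flag gives no number of molecules, because the response of the probe is not known.

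**Figure D2:**
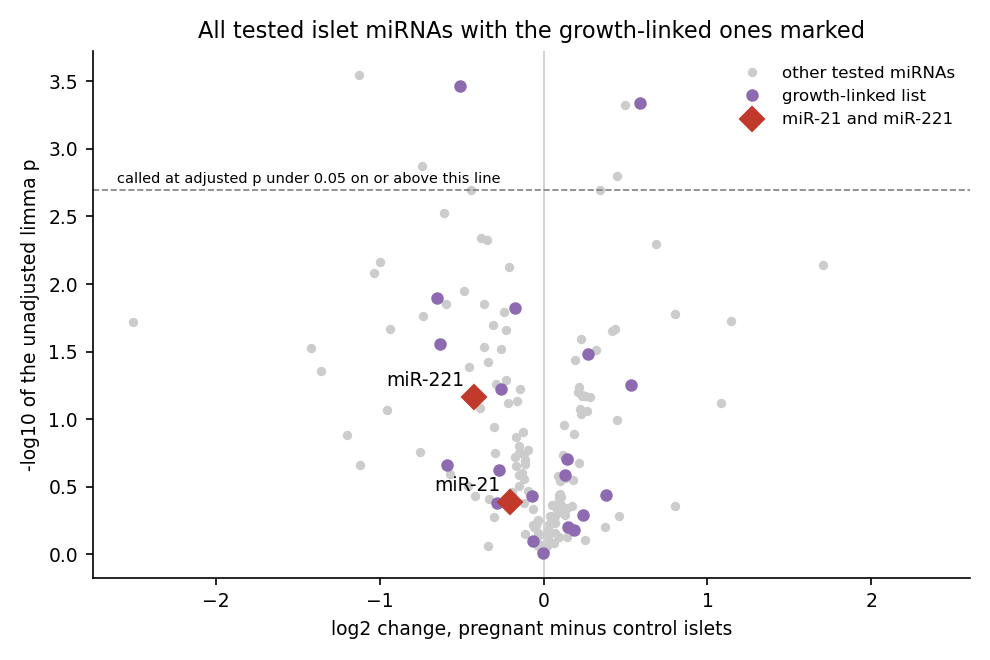
Log2 change, pregnant minus control islets (x axis), against -log10 of the unadjusted limma p (y axis) for the 171 tested miRNAs, with miR-21 and miR-221 as red diamonds and the tested miRNAs of a growth-linked list in purple. Both diamonds lie below the dashed line of the call, at log2 changes of -0.20 and -0.42, and 1 growth-linked miRNA lies above the line on each side.

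Other growth-linked miRNAs were read against the same background. The list holds 24 rows, among them the miR-17/92 and miR-106b/25 clusters, the miR-15/16 family, miR-26a and miR-26b, miR-34a, miR-31, miR-146a, miR-27a, miR-29a and miR-214, and 20 of the rows were tested. MiR-214 is also in the stromal list and miR-146a in the leukocyte list used below. MiR-155 is not among the rows analysed here. Of the 20 tested, 1 rose, miR-93 of the miR-106b/25 cluster, and 1 fell, miR-322, a rodent member of the miR-15/16 seed family, while 18 did not pass, beside 4.68% called among all miRNAs tested. MiR-93 was higher by 0.59 log2 units (SE 0.10, limma adjusted p = 0.0204), and miR-322 stood at -0.51 (SE 0.08, limma adjusted p = 0.0204). The list had 0 calls without scaling, without the detection filter, with the stromal covariate and on leaving out any 1 control array or pregnant replicate 1 or 4. Each of these settings called 0 or 1 of all miRNAs tested. It had 4 calls with the row block or without pregnant replicate 2, beside 23 and 19 of all 171 miRNAs tested. The groups did not overlap for 4 of the 20, beside 14.6% of all miRNAs tested. The median log2 change of the list was -0.03, beside -0.02 over all miRNAs tested, with 9 positive and 11 negative values. With the percentile over every miRNA row the list's median was 0.12 beside 0.13 over all miRNAs, and quantile normalization turned it to 0.01.

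**Figure D3:**
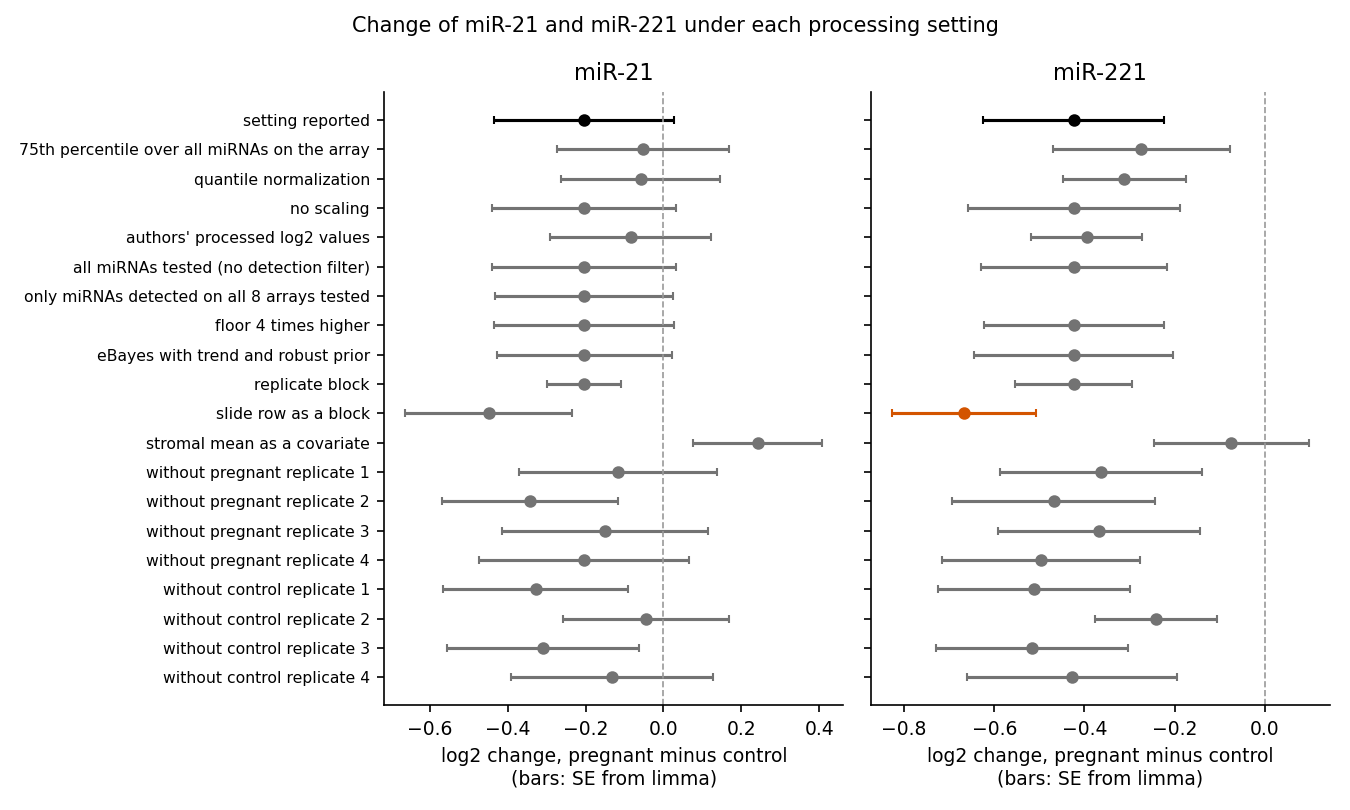
Log2 change, pregnant minus control (x axis, bars are SE from limma), of miR-21 (left) and miR-221 (right) under the reported setting (black) and each other setting (grey, orange where the limma adjusted p is under 0.05). MiR-21 stays below 0 except where the stromal mean is a covariate (0.24), and miR-221 is called only with the slide row as a block.

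By Pearson's r, both miRNAs correlated across the arrays with miRNAs of stromal and smooth muscle cells, which lie between and around the islets. By Spearman's rho after adjustment, or without 2 arrays, neither relation passed. The list of these markers had 8 rows, all on the array, of which 7 were tested and miR-145 was detected on 1 array. All 7 had negative log2 changes, beside 89 of all 171 miRNAs tested. By limma 0 were called and the median was -0.59, beside 4.68% called and a median of -0.02 over all miRNAs tested. An unadjusted limma p under 0.05 was reached by 4 of the 7, beside 42 of the 171. Without 1 array the median ran from -0.96 (pregnant replicate 2, 2 called, beside 19 of all 171) to -0.35 (control replicate 2, 0 called). Quantile normalization called 3 of the 7, the authors' processed values 2 and the row block 4. In that order these settings called 10, 6 and 23 of all 171. The summed normalised signal of the detected markers ran from 2506 to 3353 on the pregnant arrays and from 3414 to 9376 on the control arrays. The mean log2 signal of the 7 tested markers was 6.64, 7.77, 6.53 and 7.01 in pregnant replicates 1 to 4, against 7.62, 8.37, 7.25 and 7.64 in control replicates 1 to 4. Control replicate 2 and pregnant replicate 2 were the highest of their groups, as they were for miR-21. In bulk islets, fewer cells of a type and less RNA per cell cannot be told apart.

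MiR-21 correlated with the stromal mean across the 8 arrays (Pearson's r = 0.834, exact permutation p = 0.0114, adjusted p = 0.0493 over 13 relations; Spearman's rho = 0.762, exact permutation p = 0.0368, adjusted p = 0.159). Without the 2 arrays farthest from the median of miR-21, control replicates 2 and 4, r was 0.640 (exact permutation p = 0.163, 6 arrays), so the relation did not pass without those arrays. Over deviations from the group means r was 0.867. In a fit with the stromal mean as covariate the log2 change of miR-21 turned to 0.24 (SE 0.17, limma adjusted p = 0.473), and that of miR-221 was -0.07 (SE 0.17, limma adjusted p = 0.840). The stromal mean of pregnant replicates 1, 3 and 4 lay below that of every control array. In this fit pregnancy and stromal signal therefore cannot be told apart. MiR-221, whose value is a bound on 4 of the 8 arrays, had an r of 0.876 with the stromal mean (exact permutation p = 0.00327, adjusted p = 0.0308; Spearman's rho = 0.667, exact permutation p = 0.0831, adjusted p = 0.270). Without control replicate 2 and pregnant replicate 1 that r was 0.700 (exact permutation p = 0.151, 6 arrays), which did not pass. The r of miR-221 was 0.760 with the acinar mean, 0.540 with the endothelial mean, 0.518 with the beta-cell and neuroendocrine mean, 0.215 with the leukocyte mean and -0.45 with the erythroid mean, at adjusted exact permutation p-values of 0.0833, 0.275, 0.281, 0.584 and 0.342 in that order; the Spearman's rho values were 0.619, 0.452, 0.571, 0.452 and -0.36, with adjusted p-values of 0.281 to 0.460. Whether the stromal relation is closer than these was not tested. Over deviations from the group means, for which no p is given, the r of miR-221 was 0.796 with the stromal mean and 0.693 with the acinar mean. It was 0.396, 0.383 and 0.06 with the endothelial, leukocyte and erythroid means, and -0.34 with the beta-cell and neuroendocrine mean. MiR-221 entered at the minimum of 4 arrays flagged present, 3 of them control arrays and 1 pregnant, and its signal lay among the negative controls. Each slide row holds 4 arrays, too few for a correlation within a row.

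MiR-21 and miR-221 also correlated by Pearson's r. Their log2 signals had an r of 0.833 over the 8 arrays (exact permutation p = 0.00474, adjusted p = 0.0308; Spearman's rho = 0.762, exact permutation p = 0.0368, adjusted p = 0.159). Over deviations from the group means r was 0.860, and without control replicate 2 and pregnant replicate 1 it was 0.581 (exact permutation p = 0.276, 6 arrays), which did not pass. On 4 of the 8 arrays the miR-221 value is a bound, and both values share the scaling factor of the array, which was highest on control replicate 2 (1.30). Without scaling r was 0.825, and with the authors' processed values it was 0.422 (exact permutation p = 0.304).

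**Figure D4:**
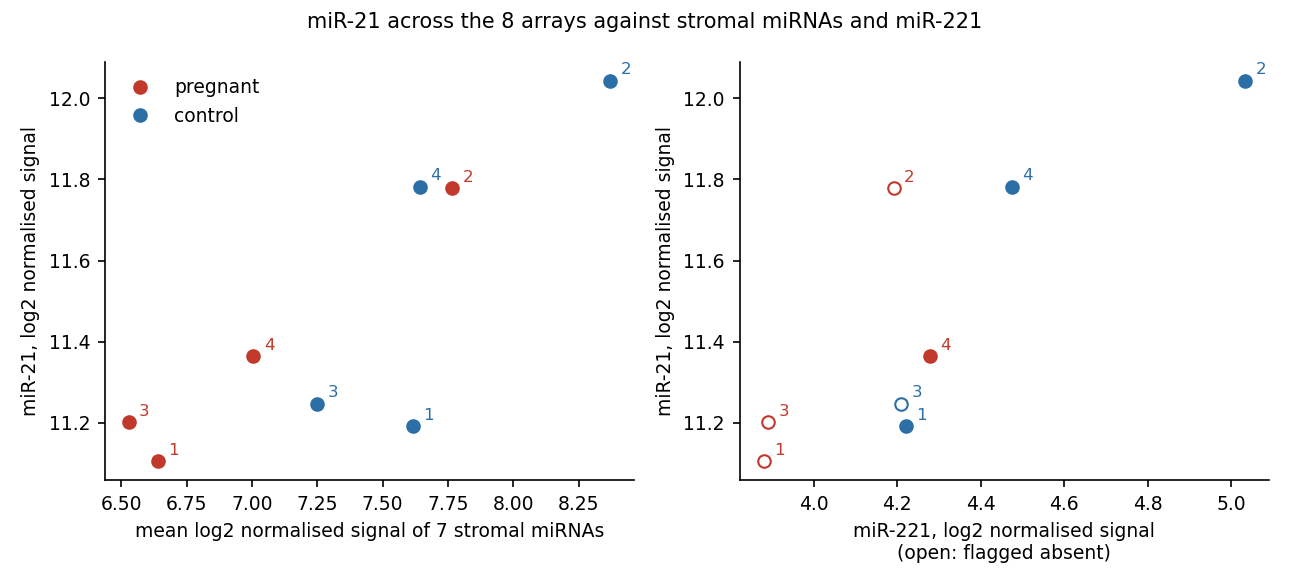
Log2 normalised signal of miR-21 (y axis) against the mean log2 normalised signal of 7 stromal miRNAs (left) and against miR-221 (right, open points flagged absent), pregnant in red and control in blue, with the replicate number beside each point. Control replicate 2 is highest on all 3 measures, and pregnant replicates 1 and 3 are lowest for the stromal mean and miR-221. For miR-21 pregnant replicate 1 is lowest, and control replicate 1 lies below pregnant replicate 3.

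Among the other marker lists, the leukocyte mean was 9.12 log2 units in pregnant replicate 2 and 6.64 to 7.02 in the other pregnant arrays, against 7.07 to 7.49 in control islets. That array also had the highest miR-21 of the pregnant group. Over all 8 arrays miR-21 and the leukocyte mean had an r of 0.573 (exact permutation p = 0.0991, adjusted p = 0.215; Spearman's rho = 0.571, exact permutation p = 0.151, adjusted p = 0.281), and 0.958 without control replicates 2 and 4 (exact permutation p = 0.0292), where pregnant replicate 2 stands apart. The summed signal of the detected leukocyte markers was 653 to 5445 on the pregnant arrays and 822 to 1083 on the control arrays. With the beta-cell and neuroendocrine mean miR-21 had an r of 0.150 (exact permutation p = 0.760, adjusted p = 0.760; Spearman's rho = 0.310, exact permutation p = 0.462, adjusted p = 0.5003), and without control replicates 2 and 4 r was -0.428. With the acinar mean, which here is miR-216a alone, miR-21 had an r of 0.700 (exact permutation p = 0.0571, adjusted p = 0.149; Spearman's rho = 0.786, exact permutation p = 0.0279, adjusted p = 0.159). With the endothelial mean r was 0.599 and with the erythroid mean -0.20, at adjusted exact permutation p-values of 0.217 and 0.687. Over deviations from the group means the r of miR-21 was -0.54 with the beta-cell and neuroendocrine mean and 0.07 with the erythroid mean. It was 0.652, 0.660 and 0.544 with the leukocyte, acinar and endothelial means. The summed signal of the detected acinar markers was 25.9 to 242 on the pregnant arrays and 114 to 312 on the control arrays, with miR-217 on no array, and that of the 2 erythroid markers 651 to 1653 on the pregnant arrays and 266 to 732 on the control arrays. The part of these cell types in the miR-21 values was not tested.

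The miRNAs whose log2 signals most resembled miR-21 over the 8 arrays were miR-199a-5p (r = 0.863), miR-214 (r = 0.858) and miR-34a (r = 0.857), against a median r of 0.15 over 170 miRNAs. The first pair are part of the stromal mean, so they are not separate from its correlation with miR-21. MiR-214 and miR-34a are in the growth-linked list. By deviations from the group means the most alike were miR-338 (r = 0.904), miR-27a (r = 0.881), also growth-linked, and miR-221 (r = 0.860). MiR-338, the miRNA blocked in the study's experiment on INS832/13 cells, a rat beta-cell line, had normalised signals of 86.7, 122, 95.01 and 92.6 in pregnant replicates 1 to 4, against 202, 286, 167 and 219 in control replicates 1 to 4. Replicate 2 was the highest array of its group for both miR-338 and miR-21. For miR-221 the most alike over the 8 arrays were miR-143 (r = 0.955), a smooth muscle miRNA, miR-345-5p (r = 0.940) and miR-10a-5p (r = 0.910), and by deviations from the group means miR-378 (r = 0.942), miR-143 (r = 0.929) and miR-30c-2* (r = 0.916). MiR-143 had normalised signals of 608, 1012, 595 and 835 in pregnant replicates 1 to 4, against 1611, 6189, 997 and 1567 in control replicates 1 to 4. These orders describe 8 arrays that share a slide, and no p is given for them. Every r of miR-221 rests on values that are bounds on 4 of the 8 arrays. MiR-30c-2* was flagged absent on pregnant replicates 1, 2 and 3, and miR-214 on pregnant replicate 3, so those values are bounds too.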

How the data were processed

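MiRNA signals of 8 islet arrays were used. The linear signal intensity per miRNA with a present or absent flag, and log2 values normalized between arrays, were deposited by the authors, per the file headers; the software is not given in the sources used here. A second table, the series matrix, holds the same log2 values, deposited by the authors (largest difference 4e-10). Flags were matched to arrays by the array names in the header, whose order differs from that of the signals. The mRNA arrays of INS832/13 cells were not used. No column of per-sample values was left over.

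Scaling used each array's 75th percentile, taken over miRNAs present on every array, with the mean percentile as target (multipliers 0.810 to 1.30). The floor of 0.810 is the lowest such value with a present flag and comes from 1 miRNA flagged present at the lowest signal, 1, on pregnant replicate 4. Log2 values of the 171 miRNAs present on at least 4 arrays were compared by limma 3.58.1, run in R 4.3.3 (lmFit and eBayes, pregnant minus control, 2-sided, Benjamini-Hochberg over all 171). The fit and the permutation p were tested on simulated data. The r and rho values were computed with scipy 1.17.1. Their 2-sided exact permutation p used all orders of the 8 arrays, or of the arrays kept where some were left out. The p-values over 8 arrays were adjusted over the 13 relations computed. List entries matched a row by exact name, and by strand where the name has none. Named miRNAs are the members, the 3 most alike to each tested member and the called ones of the growth list. Named as marker checks are miR-375, miR-7a, miR-7b, miR-129, miR-153, miR-338, miR-335, miR-184, miR-145, miR-216a and miR-217. The members and lists were chosen with earlier results of these data known. Same-numbered arrays were not paired: the correlations of their deviations were -0.14, 0.17, -0.28 and -0.49.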

Additional observations from a re-analysis of the deposited data

How the results depend on the processing

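The count of 8 called miRNAs moved to 2 with the scaling percentile over every miRNA row, to 23 with the row block, to 0 without scaling (20 at an unadjusted limma p under 0.05, against 42 in the reported fit) and to 0 without the detection filter (48). It ran from 0 to 19 when 1 array was left out: 0 without control replicates 1, 2 and 4 and pregnant replicates 1 and 4 (each with 32 to 49 at an unadjusted limma p under 0.05), and 19 without pregnant replicate 2. Over all settings the log2 change of miR-21 ran from -0.45 (row block) to 0.24 (stromal mean as covariate, the 1 reversal), and with 1 array left out from -0.34 (without pregnant replicate 2) to -0.04 (without control replicate 2). That of miR-221 ran from -0.67 (row block, where it passed the threshold) to -0.07 (stromal mean as covariate), and with 1 array left out from -0.52 (without control replicate 3) to -0.24 (without control replicate 2). MiR-221 was not tested where only miRNAs detected on all 8 arrays entered. With the replicate number as a block (replicate block), the log2 changes stayed at -0.20 for miR-21 (SE 0.10, limma adjusted p = 0.267) and -0.42 for miR-221 (SE 0.13, limma adjusted p = 0.116), and 10 miRNAs were called. The correlation of miR-21 with miR-221, whose alternatives were chosen after the data were seen, no longer passed with quantile normalization (0.531), the authors' processed values (0.422) without the 2 arrays farthest from the median of miR-221 (0.581) or without control replicate 2 (0.677, the lowest with 1 array left out; the highest was 0.932 without pregnant replicate 2). The causes were not tested. The planned tests of miR-222 minus miR-221, of their correlation and of the miR-21 strands were not run, since miR-222 and miR-21* were detected on no array.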
